A study of Mus musculus with 6 samples.

Results

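The acyl-CoA synthetases described here are 10 genes, Acsl1, Acsl3, Acsl4, Acsl5, Acsf2, Acsf3, Acsm3, Acsm5, Acss1 and Acss3, taken by symbol from the 37620 gene identifiers of an RNA sequencing series on mature brown fat cells of the mouse. The list was chosen by symbol with the counts and fold changes of the same 6 libraries in view, and no threshold on those values is given. For that reason the differences between groups are descriptions here, and the adjusted p-values are those of a fit over all genes. All mice were 6 weeks old on a C57BL/6 background, and 3 libraries labelled wild type were compared with 3 that carry the label PHOSPHO1 knockout. Each library pooled 3 mice. The cells were the fat layer that floats after collagenase digestion of the tissue, and the labels give neither sex nor the way the knockout allele was made. The libraries held 10576800 to 14239307 counts, of which the mitochondrial genome took 39.1% to 56.5%. All 10 genes passed the filter on low counts and stood among 12068 tested genes.

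The gene named in the genotype, Phospho1, was not lower under the knockout label. Its counts came to 13, 5 and 5 in wild type 1, 2 and 3 and to 18, 15 and 17 in the libraries labelled knockout (log2 fold change 1.53, SE 0.46, edgeR adjusted p = 0.056), so it did not check the labels. The direction of each difference below is therefore that of the libraries labelled knockout. The 7 brown adipocyte markers, of which 1 was called higher and 2 lower, had counts in every library and summed to 3898 to 5827 CPM, the read count scaled to library size, in wild type and 6332 to 7776 CPM in the libraries labelled knockout.

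Acyl-CoA synthetases join a carboxylic acid to coenzyme A at the cost of ATP, by way of an enzyme-bound acyl-AMP. This activation stands before nearly every use of a fatty acid: oxidation in mitochondria and peroxisomes, esterification to triglyceride and phospholipid, and elongation. The members sort by the chain length of their substrate. The Acsl enzymes take long-chain fatty acids, the Acsm enzymes medium-chain ones, the Acss enzymes acetate and other short acids, and the Acsf enzymes form a family apart. In brown fat, Acsl1 is known as the main long-chain enzyme and is needed for fatty acid oxidation in the cold.

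In the annotation Acsl3 lies on chromosome 1, Acss1 on 2, Acsm3 and Acsm5 on 7, Acsl1 and Acsf3 on 8, Acss3 on 10, Acsf2 on 11, Acsl5 on 19 and Acsl4 on X.

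What ties these enzymes together is the AMP-binding signature, a short stretch rich in glycine, serine and threonine that holds the phosphates of ATP. Its coding sequence is shown because it is the part of the transcripts that all 10 share while their levels range widely. Each line gives 30 bases of the longest coding sequence of the gene in GENCODE M21, and capitals mark the 14 bases identical in all 10.
Acsl1: TtCACaagtGGaactACaGGcaacCCcAAa
Acsl5: TtCACcagtGGaactACaGGtgacCCcAAa
Acsl3: TaCACaagtGGgtccACaGGaattCCaAAg
Acsl4: TaCACcagtGGttctACgGGccgcCCcAAg
Acsf2: TtCACctcgGGgacaACtGGaaacCCcAAg
Acsf3: TaCACcagcGGgaccACaGGgaggCCcAAg
Acsm3: TtCACcagtGGgacaACtGGgcctCCtAAg
Acsm5: TtCACcagtGGaaccACaGGggccCCcAAg
Acss1: TaCACctcaGGgagcACcGGgacaCCcAAg
Acss3: TaCACatctGGaacaACtGGgctgCCtAAg
The pattern searched was [ST][ST]G[ST][ST]G.[PSA]K in amino acid letters, where brackets list the residues allowed and a dot stands for any. It requires the glycines and the lysine, so the capitals in those codons were set by the search. The signature occurred once in each of the 10 coding sequences and in 25 of 21877 mouse coding genes (0.114%). Acsl5 shared 27 of the 30 bases with Acsl1, Acsm5 24 and Acsl4 22, and Acss1, with 17, shared the fewest. The coding sequences ran from 1734 bases in Acsm5 to 2160 in Acsl3. No 2 members were near-identical copies of one another over whole transcripts. Acsf2 has a processed pseudogene, Gm5540, that matches it at 99.0% over 1848 bases, and how the authors' counting divided reads between the pair is not given in the sources used here. Gm5540 itself held 0 to 4 counts in each library.

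Levels are compared between genes per kilobase of the longest annotated transcript. In wild type Acsl1 stood highest at 233 ± 75.7 CPM per kilobase (SD, n = 3) and ranked 154 among 11863 genes with a length. Acsm3 followed at 59.4 ± 8.10, Acss1 at 35.1 ± 4.54 and Acsl5 at 21.2 ± 4.13 CPM per kilobase, and none of these 4 ranges over the wild-type libraries overlapped. Acsf3 (8.23 ± 1.99), Acss3 (7.92 ± 1.11), Acsl4 (7.40 ± 1.34) and Acsl3 (4.88 ± 1.32 CPM per kilobase) came next, each overlapping its neighbour in the order. Acsf2 at 2.23 ± 1.17 and Acsm5 at 1.33 ± 0.449 CPM per kilobase were lowest and also overlapped.

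The order was nearly the same in the libraries labelled knockout. Acsl1 had 111 ± 45.2 CPM per kilobase (SD, n = 3), Acsm3 59.0 ± 17.6, Acss1 25.1 ± 5.16 and Acsl5 23.3 ± 3.14, and Acss1 and Acsl5 now overlapped. At the bottom Acsf2, at 0.618 ± 0.258, lay below Acsm5, at 0.968 ± 0.265 CPM per kilobase, with overlapping ranges. Acsl1 ranked 425 and Acsf2 9859 of 11863 genes there, against 154 and 7175 in wild type. The longest transcript of Acsl1, of 5676 bases, is annotated as a retained intron; with its longest protein-coding transcript, of 3897 bases, the level of Acsl1 was 340 ± 110 CPM per kilobase in wild type and 162 ± 65.8 in the libraries labelled knockout. For the other 9 genes the longest transcript is protein-coding. Levels and order moved with the length used: with the median annotated transcript, 673 bases for Acsl1, its wild-type level was 1970 CPM per kilobase, and Acss1 (193) and Acsl5 (185), which overlapped, stood above Acsm3 (75.2).

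The make-up of the 10 genes was dominated by Acsl1. Of their summed level per kilobase, with the longest protein-coding transcript of each, Acsl1 made up 69.2%, 62.8% and 74.4% in wild type 1, 2 and 3, and its shares under the knockout label were 48.3%, 63.2% and 53.1%. The groups overlapped, with library 2 of the knockout label just above library 2 of wild type. Acsm3 took 10.7%, 16.7% and 10.5% in wild type and 25.1%, 18.1% and 18.2% under the knockout label, and here the groups did not overlap. A share also depends on the levels of the other genes. The mean CPM of Acsm3 itself was 195.7 ± 26.7 in wild type and 194.5 ± 58.1 under the knockout label (SD, n = 3). With the median transcript the shares of Acsm3 were 2.62%, 4.36% and 2.54% against 7.02%, 4.66% and 4.61%, and the mean share of Acsl1 was 78.3% in wild type and 66.0% under the knockout label. Within the 4 Acsl genes alone, Acsl5 made up 7.05%, 6.51% and 4.2% in wild type and 15.4%, 7.63% and 17.1% in the libraries labelled knockout. The mean CPM of Acsl5 itself was 89.96 ± 17.5 and 99.0 ± 13.3 in these groups (SD, n = 3). The summed level of the 10 genes was 468, 380 and 615 CPM per kilobase in wild type and 282, 375 and 213 in the libraries labelled knockout.

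**Figure D1:**
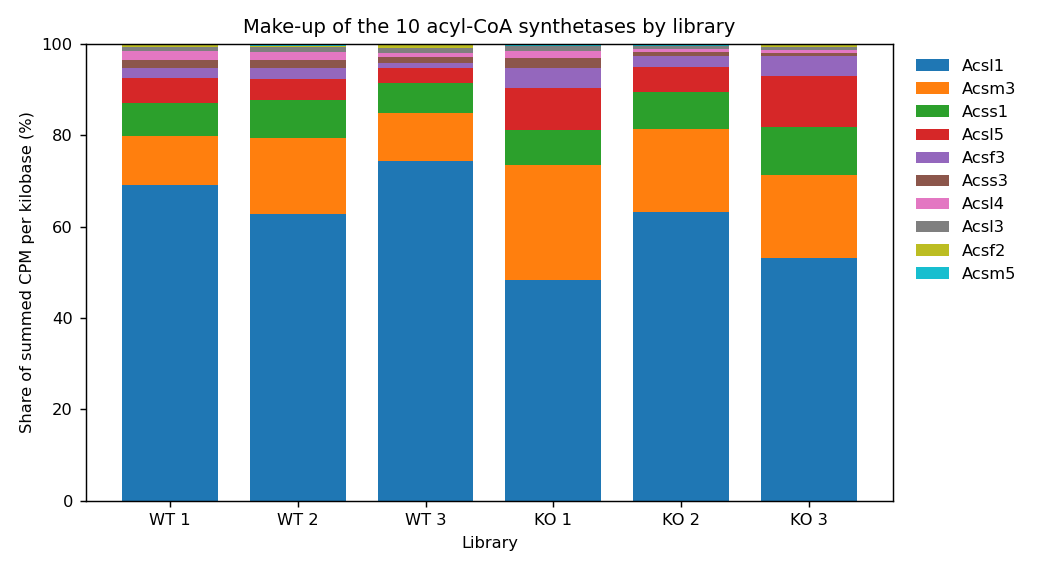
Stacked bars give the share of each of the 10 genes in their summed CPM per kilobase of the longest protein-coding transcript (vertical axis, percent) in each of the 6 libraries (horizontal axis). Acsl1 takes 62.8% to 74.4% in wild type and 48.3% to 63.2% under the knockout label.

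Among the long-chain enzymes, Acsl1, Acsl3 and Acsl4 were lower in every library labelled knockout than in every wild-type library, and Acsl5 was not. Acsl1 had 1261, 931 and 1783 CPM in wild type 1, 2 and 3 and 530, 923 and 441 CPM in knockout-labelled libraries 1, 2 and 3. Wild type 2 and knockout-labelled library 2 thus lay side by side, and wild type 3 was the highest. The means were 1325 ± 429.9 and 632 ± 256 CPM (SD, n = 3 each), a difference of -1.07 on the log2 scale (SE 0.33) that missed the threshold of 0.05 (edgeR adjusted p = 0.060). Because these are bulk samples, fewer cells of a type and less RNA per cell cannot be told apart in this or any later value.

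Acsl3, an enzyme of the endoplasmic reticulum and of forming lipid droplets, had 19.5, 13.99 and 24.4 CPM in wild type and 11.1, 9.10 and 5.62 CPM under the knockout label. Its log2 fold change was -1.16 (SE 0.32, edgeR adjusted p = 0.044). Acsl4, which prefers arachidonic acid and other polyunsaturated fatty acids, had 46.5, 38.4 and 32.4 CPM in wild type and 24.6, 13.0 and 6.94 CPM under the knockout label. Its log2 fold change was -1.39 (SE 0.38, edgeR adjusted p = 0.045), and the 3 libraries labelled knockout spread 3.54-fold among themselves against 1.43-fold in wild type. Both genes passed the threshold with p-values just under it.

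Acsl5, an enzyme of mitochondria and the endoplasmic reticulum, had 109, 73.8 and 87.5 CPM in wild type and 111, 84.7 and 101 CPM in the libraries labelled knockout. The groups overlapped and the log2 fold change was 0.14 (SE 0.23, edgeR adjusted p = 0.703). Acsl5 varied least of the 10 genes, by 1.51-fold from the lowest to the highest library, whereas Acsf2 varied 10.6-fold and Acsl4 6.69-fold.

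**Figure D2:**
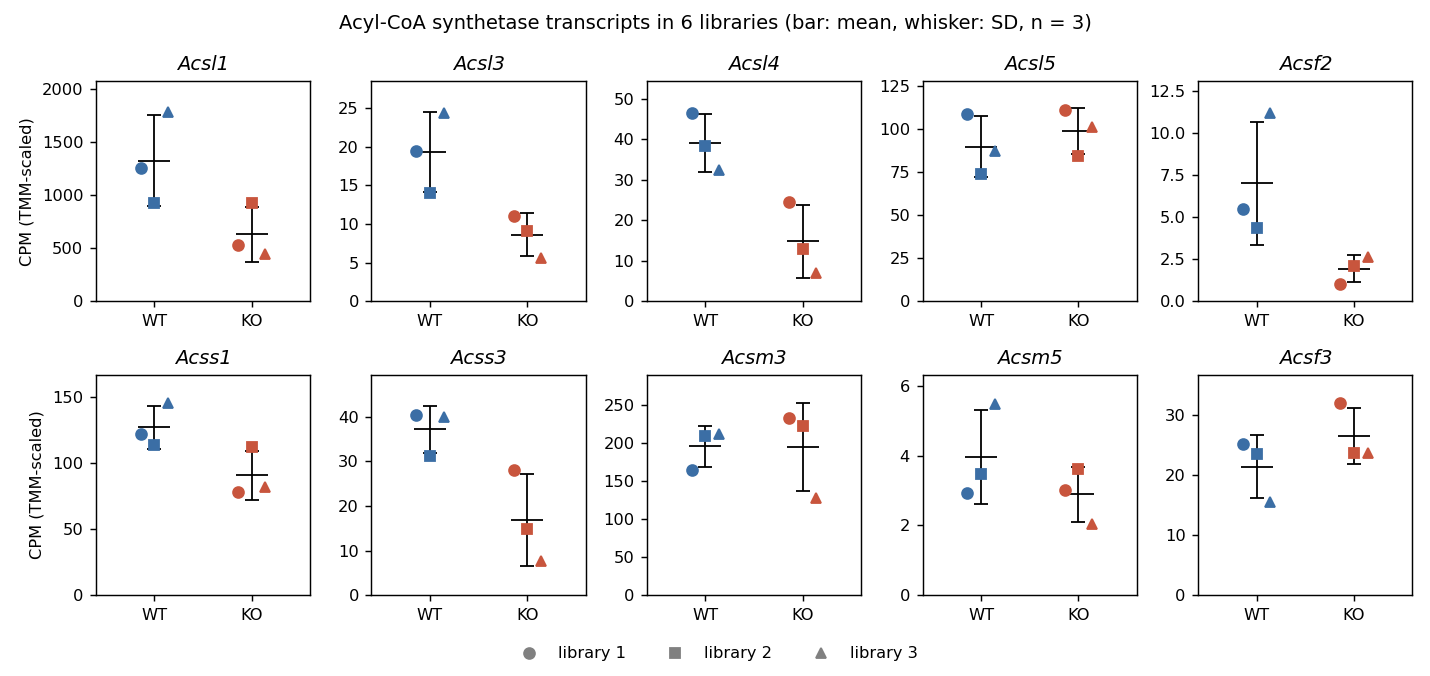
Each panel plots 1 gene, with CPM on TMM-scaled library sizes (vertical axis, from 0) in the 3 wild-type libraries (WT, blue) and the 3 labelled knockout (KO, red), marker shapes for library number, bars for means and whiskers for SD. Acsl1, Acsl3, Acsl4, Acsf2, Acss1 and Acss3 show no overlap between the groups, and Acsl5, Acsm3, Acsm5 and Acsf3 overlap.

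Acsf2, a mitochondrial enzyme described as acting on medium-chain acids, had the largest decrease of the 10 genes over all 6 libraries. It drew 97, 64 and 125 counts in wild type against 12, 26 and 26 under the knockout label, or 5.47, 4.37 and 11.2 CPM against 1.06, 2.13 and 2.65 CPM. Every library labelled knockout lay below every wild-type library, and wild type 3 stood well above the other wild-type libraries. The log2 fold change was -1.84 (SE 0.44, edgeR adjusted p = 0.031), and without wild type 3 it was -1.36 (adjusted p = 0.102). Without wild type 3 the decrease of Acsl4 was larger, at -1.55, and without knockout-labelled library 1 Acsl4 (-1.96) and Acss3 (-1.71) were lower than Acsf2 (-1.54).

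Acsf2 lies on chromosome 11, as Phospho1 does, at a distance of 1.22 Mb in the GRCm38 annotation. Over all tested genes 1.63% were called higher and 7.52% lower. Of the 21 other tested genes within 1 Mb of Acsf2, 2 were higher, 4 lower and 15 did not pass, and their median log2 fold change was -0.022. The clearest of these was B230206L02Rik, 0.401 Mb away, with 26, 32 and 17 counts in wild type and 151, 153 and 155 under the knockout label (log2 fold change 3.00, edgeR adjusted p = 0.006). It was also called with length and GC offsets on the longest transcript (2.37, edgeR adjusted p = 0.013), the 1 gene of the 12068 tested that was. The immediate tested neighbours of Acsf2, Rsad1 and Lrrc59, were at -0.35 and 0.099 on the log2 scale and neither passed (edgeR adjusted p = 0.411 and 0.820). Of the 13 tested genes between Acsf2 and Phospho1, Ngfr was higher (2.04, adjusted p = 0.043), Spop was lower (-1.02, adjusted p = 0.049) and 11 did not pass.

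The short-chain enzymes were both lower without overlap, and neither passed the threshold. Acss1, the mitochondrial acetyl-CoA synthetase that lets brown fat oxidise acetate, had 122, 113 and 145 CPM in wild type and 78.3, 112 and 81.6 CPM under the knockout label. The lowest wild-type library and the highest library labelled knockout lay nearly level, and the log2 fold change was -0.48 (SE 0.23, edgeR adjusted p = 0.184). Acss3, a mitochondrial enzyme active on propionate, had 40.4, 31.2 and 39.9 CPM in wild type and 28.0, 14.9 and 7.56 CPM under the knockout label. Its log2 fold change was -1.14 (SE 0.39, edgeR adjusted p = 0.078), and as with Acsl4 the libraries labelled knockout spread widely, by 3.71-fold.

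The wild-type libraries of Acss3 spread 1.30-fold. Of its annotated exonic bases, 33.9% also lie in exons of Ppfia2 on the opposite strand, a gene that held at most 7 counts in any library.

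The groups overlapped in the medium-chain enzymes and in Acsf3, and none of the 3 passed the test. Acsm3, a mitochondrial enzyme of medium-chain acids that also takes butyrate, had 165, 210 and 213 CPM in wild type and 233, 223 and 128 CPM under the knockout label, so that the label held both the highest and the lowest library. Its log2 fold change was -0.008 (SE 0.27, edgeR adjusted p = 0.986). Acsm3 shares 39.7% of its exonic bases with Eri2 on the opposite strand, and Eri2 held 64 to 199 counts where Acsm3 held 1251 to 3071. Acsm5, a relative of Acsm3 at a low level, had 2.93, 3.48 and 5.47 CPM in wild type and 3.01, 3.61 and 2.04 CPM under the knockout label (log2 fold change -0.44, SE 0.36, edgeR adjusted p = 0.417). Acsf3, which activates malonate for mitochondrial fatty acid synthesis, had 25.3, 23.5 and 15.5 CPM in wild type and 32.0, 23.8 and 23.8 CPM under the knockout label (log2 fold change 0.31, SE 0.26, edgeR adjusted p = 0.436).

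In all, 3 of the 10 genes were called lower (Acsf2, Acsl3 and Acsl4) and 0 higher by edgeR at an adjusted p under 0.05, where 7.52% of the 12068 tested genes were called lower, 1.63% higher and 9.16% in either direction. Unadjusted, 5 of the 10 had a p under 0.05, Acsl1 and Acss3 being the others, where 30.8% of all tested genes had one. In 6 of the 10 every library labelled knockout lay below every wild-type library, where 19.6% of all tested genes did so, and in 0 of the 10 was every such library above, where 15.8% of all genes were. The groups of 35.4% of all tested genes did not overlap in one direction or the other. The median log2 fold change was -0.78 over the 10 genes and 0.028 over all tested genes. Since the list was chosen with these values known, the counts describe the 10 genes and support nothing further. DESeq2 called 5 lower, the same 3 with Acsl1 and Acss3, where 11.5% of all genes with an adjusted p were called lower.

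Which genes passed depended on single libraries, while some differences stayed as large and others shrank. Without wild type 1, wild type 3 or knockout-labelled library 3, 0 of the 10 genes passed, and without knockout-labelled library 2 only Acsl1 did (-1.46, edgeR adjusted p = 0.049). Over all tested genes the same fit called 0 without wild type 1 and 2 without knockout-labelled library 3, where 2251 and 2672 had an unadjusted p under 0.05. The fit called 397 without wild type 3 and 305 without knockout-labelled library 2. Without wild type 1 Acsf2 was at -1.998 and Acsl3 at -1.16, and without wild type 3 Acsl4 was at -1.55. Acsf2 was at -2.11 without knockout-labelled library 3. Other decreases were smaller than with all libraries. Without wild type 3 Acsl1 was at -0.82 and Acsl3 at -0.99. Without knockout-labelled library 3 Acsl1, Acsl3, Acsl4 and Acss3 were at -0.87, -0.94, -1.08 and -0.81. Acsf2, Acsl1, Acsl3, Acsl4, Acss1, Acss3 and Acsm5 kept a negative log2 fold change in each of the 6 fits with 1 library left out.

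Of the 10 genes, 6 had their lowest level in knockout-labelled library 3, and 5 their highest in wild type 3. Knockout-labelled library 3 was lowest for Acsl1, Acsl3, Acsl4, Acsm3, Acsm5 and Acss3, and wild type 3 was highest for Acsf2, Acsl1, Acsl3, Acsm5 and Acss1. How often these 2 libraries were lowest or highest over all tested genes was not counted, so the counts describe the 10 genes only. These 2 libraries differed in other measures too. The 8 skeletal muscle markers, of which 7 were tested and 0 called, summed to 1010 CPM in wild type 3 against 41.7 to 91.5 CPM in the other wild-type libraries and 43.3 to 116 CPM under the knockout label; Myh1 was at 0 in at least 1 library. The 5 mural cell markers summed to 812 to 1263 CPM in wild type and 439 to 883 CPM under the knockout label, the lowest in knockout-labelled library 3, with 2 called higher, 0 lower and none at 0. In other lists the macrophage and stromal sums did not overlap between the group labels, and the erythroid and endothelial sums did. Macrophage markers (7, of which 1 higher and 1 lower, Cd163 at 0 in at least 1 library) summed to 102 to 196 CPM in wild type and 222 to 489 under the knockout label. Stromal markers (6, of which 2 higher) summed to 730 to 807 and 959 to 1317 CPM, and erythroid markers (5, of which 2 higher) to 366 to 1378 and 1210 to 3505 CPM. All 3 sums were highest in knockout-labelled library 3. Of 7 endothelial markers 3 were called lower, with sums of 303 to 571 and 288 to 399 CPM. Of 7 adipocyte markers 1 was called lower and 0 higher. Their sums overlapped, at 16110 to 22660 CPM in wild type and 17250 to 24470 CPM under the knockout label. The part of these cells in the values of the 10 genes was not tested.

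Transcript length moved with the groups and with these genes. The slope of each library's log2 ratio to the mean of all libraries on log2 transcript length was 0.306, -0.0255 and 0.300 in wild type and -0.238, -0.0932 and -0.249 under the knockout label, so long transcripts were relatively lower under that label. By their longest transcripts Acsl1 and Acsl4 belong to length decile 9 of the tested genes, whose median log2 fold change was -0.61 and in which 18.6% of genes were called lower. The 3897-base coding transcript of Acsl1 is shorter than the 3950-base transcript of Acsl3. Acss3 is in decile 8 (median -0.38), and Acsl3 and Acsl5 are in decile 7 (median -0.19). Acsf2 is in decile 5, where the median was 0.092 and 2.94% were called lower. Acsl3 and Acsl5 thus come from the same length class and lie on opposite sides of its median.

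**Figure D3:**
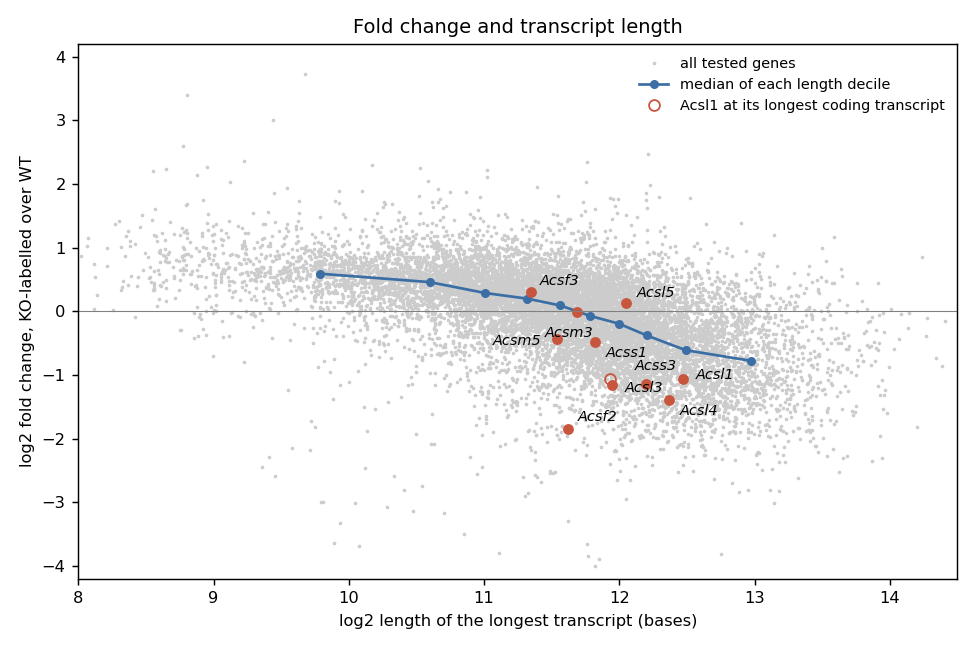
Each grey point is 1 of the tested genes, with log2 length of its longest transcript in bases (horizontal axis) and log2 fold change of the libraries labelled knockout over wild type (vertical axis); the line joins the medians of the length deciles and red points are the 10 genes. Of the 10 genes, Acsf2 at -1.84 lies furthest below the line, and the open circle shows Acsl1 at its 3897-base coding transcript.

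When offsets for the length and GC content of each transcript entered the fit, with the longest transcript, 0 of the 10 genes passed, where 1 of the 12068 tested genes did. Acsl4 moved from -1.39 to -0.61 (edgeR adjusted p = 0.253), Acss3 from -1.14 to -0.50 (adjusted p = 0.346) and Acsl3 from -1.16 to -0.73 (adjusted p = 0.130). Acsf2 was at -1.97 (SE 0.41, adjusted p = 0.062), as large as without the offsets. The offset value of Acsl1 depended on the transcript: it was -0.45 (adjusted p = 0.326) with the 5676-base retained-intron transcript, -0.81 (adjusted p = 0.118) with the 3897-base coding transcript, and -0.98 (adjusted p = 0.104) with the median transcript. With the median transcript Acsl3 was at -0.99 (adjusted p = 0.076) and Acsl4 at -0.37 (adjusted p = 0.483). With the longest protein-coding transcript Acsl3 was at -0.64 (edgeR adjusted p = 0.167). The decreases of Acsl1 and Acsl3 were thus close to those without offsets with the median transcript. They were smaller with the longest and the longest protein-coding transcript. With the median transcript length Acsf2 passed at -2.19 (adjusted p = 0.049), the only one of the 10 to do so, where 224 of all genes passed. Acsl5 and Acsm3 were at 0.45 and 0.35 with the longest transcript (adjusted p = 0.224 and 0.324). The median of the 10 genes went from -0.78 to -0.46 with the longest transcript, and that of all tested genes was 0.030.

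**Figure D4:**
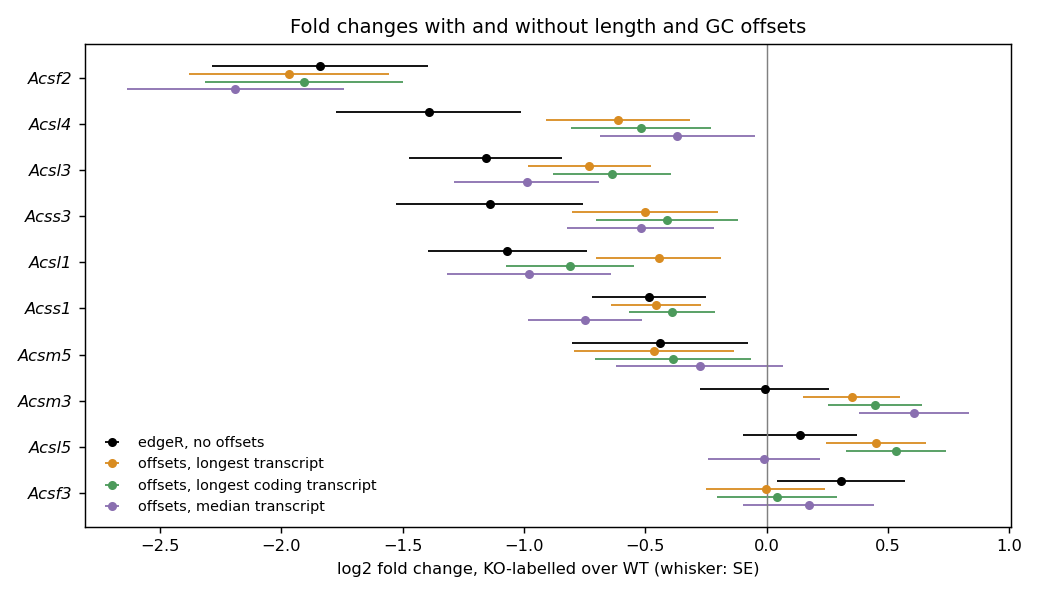
Points give the log2 fold change of each of the 10 genes (libraries labelled knockout over wild type, horizontal axis) without offsets and with length and GC offsets from 3 choices of transcript, and whiskers give SE. Acsf2 stays between -1.84 and -2.19 in the 4 fits, while Acsl4 moves from -1.39 to between -0.61 and -0.37.

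The promoters of Acsl1, Acsl3 and Acsl4, whose groups did not overlap, are shown beside that of Acsm3, whose groups did. In RefSeq on GRCm38.p6, 9 of the 10 genes matched a promoter entry, and Acss3 did not. The lines give the 250 bases before the start, 5′ to 3′ on the gene's strand, with GGGCGG on either strand, the GC box bound by Sp1-type factors, in capitals.
Acsl1 (chr8:46470787-46471036, plus strand): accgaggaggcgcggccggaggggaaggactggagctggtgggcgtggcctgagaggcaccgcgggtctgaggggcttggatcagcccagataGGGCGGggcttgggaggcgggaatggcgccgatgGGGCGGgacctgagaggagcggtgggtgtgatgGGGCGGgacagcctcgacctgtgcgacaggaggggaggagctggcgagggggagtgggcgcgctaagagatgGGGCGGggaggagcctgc
Acsl3 (chr1:78657575-78657824, plus strand): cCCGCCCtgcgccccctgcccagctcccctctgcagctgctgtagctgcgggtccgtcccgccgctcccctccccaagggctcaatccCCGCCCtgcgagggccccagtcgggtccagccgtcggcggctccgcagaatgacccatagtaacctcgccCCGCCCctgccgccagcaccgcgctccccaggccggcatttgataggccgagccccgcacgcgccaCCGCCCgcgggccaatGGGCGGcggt
Acsl4 (chrX:142390536-142390785, minus strand): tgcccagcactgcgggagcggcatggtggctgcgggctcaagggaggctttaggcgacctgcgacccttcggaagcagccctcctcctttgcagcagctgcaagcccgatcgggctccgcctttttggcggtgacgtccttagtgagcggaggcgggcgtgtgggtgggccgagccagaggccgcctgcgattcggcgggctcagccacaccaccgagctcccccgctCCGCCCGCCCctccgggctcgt
Acsm3 (chr7:119760673-119760922, plus strand): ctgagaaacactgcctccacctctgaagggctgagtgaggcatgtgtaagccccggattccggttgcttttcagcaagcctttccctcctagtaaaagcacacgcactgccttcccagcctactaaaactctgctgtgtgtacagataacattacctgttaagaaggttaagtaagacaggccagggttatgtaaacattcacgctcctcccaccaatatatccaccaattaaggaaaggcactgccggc
GGGCGG stood 4 times in the upstream Acsl1 promoter, 5 times in that of Acsl3, 5 times in that of Acsf2, and 2 times each in those of Acsl4 and Acss1, and 32.7% of the 32851 promoters in the table held it. Among tested genes with a promoter the share was 64.8%. The promoters of Acsl5, Acsm3, Acsm5 and Acsf3 and the second promoter of Acsl1 (chr8:46490716-46490965) held none. GC content differed as well. It ran from 61.6% (Acss1) to 75.6% (Acsl3) in the windows with the motif. In those without it, GC content ran from 48.4% (second promoter of Acsl1) to 52.8% (Acsl5). The motif was not told apart from base composition. The motif is 1 of 7 searched, in genes chosen with their fold changes in view, so its spread over the members is a description only. Over all 9066 tested genes with a promoter the median log2 fold change was 0.045 for genes without the motif, -0.011 for those with it and -0.19 for those with 4 or more copies, and 6.93%, 8.25% and 10.2% were called lower. With length and GC offsets these medians were 0.030, 0.025 and -0.028. The other motifs searched on both strands were the direct repeat of AGGTCA spaced by 1 base, which PPAR and RXR bind, AGGTCA alone, the E-box sequence CACGTG, the TATA box sequence TATAAA, the sequence CCAAT bound by NF-Y, and the cAMP response element TGACGTCA. None of the 10 windows held AGGTCA, alone or repeated, and 14% and 0.0335% of all promoters did. CACGTG stood in the promoter of Acsm5 and in 6.02% of all promoters. TATAAA and TGACGTCA stood in none of the windows, and in 12.4% and 1.55% of all promoters. CCAAT stood in the promoters of Acsf3, Acsl3, Acsl5, Acsm3 and Acsm5 and in the second promoter of Acsl1, and in 33.8% of all promoters.

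The other acyl-CoA synthetases gave 0 calls. Of 15 further genes of the superfamily 7 were tested, and 0 were higher or lower by edgeR (0 also had an unadjusted p under 0.05). Of all tested genes 9.16% were called in either direction and 30.8% had an unadjusted p under 0.05. Acss2, the cytosolic and nuclear acetyl-CoA synthetase, was at -0.40 on the log2 scale (adjusted p = 0.288), and the fatty acid transport proteins Slc27a1, Slc27a2, Slc27a3 and Slc27a4 had -0.45, -0.007, -0.46 and 0.32 (adjusted p = 0.255, 0.988, 0.509 and 0.385). Aacs, which activates acetoacetate, was at 0.14 and Aasdh at -0.51 (adjusted p = 0.683 and 0.290). Per kilobase, Slc27a2, which activates very long chains, stood at 41.0 ± 8.50 CPM and Acss2, whose longest transcript is a retained intron, at 34.2 ± 5.42 CPM in wild type (SD, n = 3), next to Acss1 among the genes above. Acsm1, Acsm2, Acsm4 and Acsbg2 held 0 counts in every library, which allows up to 3 counts in each.

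Genes that supply acyl-CoA synthetases, use their product or regulate fatty acid metabolism fill 7 lists with 97 tested genes. The 7 synthetases just given are among them. By edgeR 1 of the 97 was higher, 4 were lower and 92 did not pass. Over all tested genes 1.63% were called higher and 7.52% lower. The median log2 fold change of the 97 was 0.037. Without offsets the lists went both ways. The median was 0.33 over 18 genes of acyl-CoA binding and hydrolysis and 0.20 over 20 of mitochondrial oxidation. It was -0.25 over 12 regulators and -0.40 over the 7 other synthetases. With length and GC offsets on the longest transcript these 4 medians were 0.08, -0.039, -0.27 and -0.22. That of the 97 genes was -0.11 with these offsets. Every library labelled knockout lay above every wild-type library in 5 of the 18 and 6 of the 20, against the 15.8% of all genes given above. Gpihbp1, the anchor of lipoprotein lipase on capillaries, rose from 239 ± 59.9 to 468 ± 58.0 CPM (0.97, edgeR adjusted p = 0.038) and was the 1 call among 12 genes of fatty acid supply and binding. Acbd5, a peroxisomal acyl-CoA binding protein, fell from 66.4 ± 12.5 to 17.6 ± 10.5 CPM (-1.92, adjusted p = 0.021), the 1 call among 18 genes of acyl-CoA binding and hydrolysis. Lpin1, a phosphatidate phosphatase of triglyceride synthesis, fell from 112 ± 28.3 to 56.2 ± 9.92 CPM (-0.996, adjusted p = 0.039), the 1 call among 13 genes of glycerolipid synthesis. With the length and GC offsets they were at 0.51, -1.26 and -0.59 (adjusted p = 0.137, 0.069 and 0.101), in a fit that called 1 of all tested genes.

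Among 20 genes of mitochondrial acyl-CoA oxidation 0 passed in edgeR and 5 had an unadjusted p under 0.05, against 30.8% of all tested genes; the smallest p belonged to the thiolase Acaa2 (0.66, adjusted p = 0.095). Among 15 genes of acetyl-CoA, malonyl-CoA and mitochondrial fatty acid synthesis 0 passed and 4 had an unadjusted p under 0.05, again near the share of all genes, with the acetyl-CoA carboxylase Acaca, at -2.13 (adjusted p = 0.053), the nearest. Of 12 transcriptional regulators of fatty acid metabolism 2 fell, the orphan receptor Esrrg (-1.73, adjusted p = 0.028) and the coactivator Ppargc1a (-1.07, adjusted p = 0.034), and 0 rose. Of all tested genes 7.52% were called lower and 1.63% higher. With the offsets Esrrg and Ppargc1a were at -1.05 and -0.17 (adjusted p = 0.103 and 0.659).

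The genes most like Acsl1 over the 6 libraries, by Pearson's r of log2 CPM among 6062 genes with a mean of at least 10 CPM, were Trappc11 (r = 0.999), Mccc1 (0.999) and Lrpap1 (0.996). Mccc1, a subunit of the leucine-degrading methylcrotonyl-CoA carboxylase, had 85.6, 69.4 and 112 CPM in wild type and 46.3, 72.0 and 42.0 CPM under the knockout label. Over so few libraries such values are common: 203 genes had an r above 0.95 with Acsl1. Among the 7 other members above that level, Acss1 was most like Acsl1 (r = 0.980) and Acsf3 least (r = -0.706). The genes most like Acsf2 were Pde1a (0.997), Klhl5 (0.992) and the malic enzyme Me1 (0.989), and 45 genes had an r above 0.95 with it.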

How the data were processed

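RNA was measured in 6 libraries, 3 per group, with group and library number taken from the labels. The authors deposited unnormalized counts, as integers for each Ensembl gene; the submitters' processing notes name STAR 2.5.4b and mm9. No source used here gives the counting program, strand setting or annotation, so reads of overlapping genes on opposite strands cannot be told apart. Symbols, transcript lengths and GC content came from GENCODE M21 (GRCm38) by identifier: 32897 of 37620 matched, and the rest held 0.178% of counts. Identical libraries were looked for, and 0 pairs were found.

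The analysis used edgeR 4.0.16 under R 4.3.3: filterByExpr (minimum count 10, minimum total 15), TMM scaling, and the robust quasi-likelihood F test (two-sided) over all genes with Benjamini-Hochberg adjustment and a threshold of 0.05. SE of a log2 fold change was derived from F. CPM were computed on TMM-scaled sizes. P-values weigh the group difference against the spread between libraries, in which pools of mice and their processing cannot be told apart. The members and all lists were chosen with earlier results of these data known. Named besides the members were Phospho1, every tested gene of the other synthetases, up to 3 called genes per direction in each further list (or the one with the smallest p), and the 3 genes most like Acsl1 and Acsf2 without predicted-gene names and pseudogenes. B230206L02Rik, Rsad1, Lrrc59, Ngfr, Spop, Eri2, Ppfia2, Gm5540, Myh1 and the 4 synthetases at 0 were named after their values were seen. One list symbol, Hsd17b8, was matched through its annotated name.

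Alternatives were RLE scaling, total counts, DESeq2 1.42.0, limma-voom (limma 3.58.1), no filter, a floor of 1 CPM in 3 libraries, a block for the replicate number, leaving out each library, an adjusted p of 0.01, and offsets from smooth terms (mgcv 1.9.3, basis size 6, prior count 2) on transcript length and GC. Offsets with the longest protein-coding transcript and a fit lacking the mitochondrial genome were added after seeing the data. Copies were sought with BLAST 2.17.0 (at least 85% identity over 200 bases). On simulated counts of this comparison over 12068 genes, 16% of genes changed 2-fold and 88% of those changed 4-fold were recovered.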

Additional observations from a re-analysis of the deposited data

How the results depend on the processing

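Of the 10 genes, 3 were called lower and 0 higher; DESeq2 and the replicate block each called 5 lower, an adjusted p of 0.01 called 0, and the offsets on the longest, the longest protein-coding and the median transcript called 0, 0 and 1. With 1 library left out, 0 to 4 of them were lower and 0 higher. Over all genes, 908 were lower and 197 higher. Total counts gave 1389 and 29, DESeq2 1349 and 493, and the replicate block 976 and 223. An adjusted p of 0.01 gave 0 and 1. The offsets on the longest and on the longest protein-coding transcript gave 0 and 1 each, and on the median transcript 141 and 83. Leaving out 1 library gave 0 to 1383 lower and 0 to 688 higher. Of the other acyl-CoA genes, 4 were lower and 1 higher; total counts gave 7 and 0, DESeq2 4 higher, and an adjusted p of 0.01 and each of the 3 offsets 0 and 0. Leaving out 1 library gave 0 to 8 lower and 0 to 7 higher.

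Values near 0 changed sign. Acsf3 was at -0.004 with offsets on the longest transcript, and Acsl5 at -0.127 with total counts and -0.011 with offsets on the median transcript. Acsm3 was at 0.002 with RLE scaling, at 0.351, 0.447 and 0.609 with offsets on the longest, the longest protein-coding and the median transcript, and at 0.046, 0.033 and 0.213 without wild type 2, wild type 3 and knockout-labelled library 3; with 1 library left out its lowest value was -0.151, on the side of the value reported. The cause was not tested. Over all genes the median went from 0.028 to -0.234 with total counts.

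The labels do not say whether the replicate number pairs the libraries. Deviations from the group means correlated at 0.145, -0.534 and 0.0318 for numbers 1, 2 and 3. Wild type 3 correlated at 0.545 with knockout-labelled library 2 and at -0.424 with knockout-labelled library 1. Deviations within a group of 3 sum to 0, so these values cannot decide on a pairing. With the replicate block 5 members were called lower, Acsl1 and Acss3 besides the 3, where 976 of the 12068 tested genes were. At these depths Acsf2 and Acsm5 rest on 12 to 125 and 20 to 61 counts per library.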
